A study of Mus musculus with 9 samples.

Results

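The interferon response genes examined here were 47 genes chosen by symbol, and 46 of them were listed among the 15184 genes of the deposited table. The remaining gene, *Trex1*, was not analysed here. They comprised 17 sensors and signalling genes (receptors and kinases, transcription factors, nucleic acid sensors and their adaptors, and enzymes that edit or clear nucleic acids) and 29 genes that interferon induces. Cells were wild-type mouse embryonic fibroblasts (MEFs), which the methods describe as transduced with lentiviruses carrying lentiMPHv2 and lentiSAMv2 and then selected with blasticidin and hygromycin. These vectors supply an inactive Cas9 and transcriptional activators (SAM, synergistic activation mediator), which a guide RNA brings to *Hnrnpk*. PolyA+ RNA was sequenced in 9 libraries, 3 of cells labelled Empty vector and 6 with the genotype label Hnrnpk_SAM, of which 3 were titled SAM1 and 3 SAM2. Guides were used separately, but the labels do not say which guide SAM1 or SAM2 carried, and the control is described as an empty vector in the labels and as a nontargeting guide in the methods. No interferon, virus or other treatment is named in the labels, and neither separate cultures nor clones are described for the 3 libraries of a group, so the p-values measure the spread between these libraries, which may be technical.

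Type I interferons bind a receptor made of IFNAR1 and IFNAR2, and the receptor-bound kinases JAK1 and TYK2 then phosphorylate STAT proteins such as STAT2. STAT2 and IRF9 are subunits of ISGF3, a complex that binds the interferon-stimulated response element (ISRE) in the promoters of interferon-stimulated genes. Cytosolic DNA and RNA are detected upstream of this loop by sensors such as cGAS and MDA5, whose adaptors STING and MAVS activate IRF3 and IRF7, and fibroblasts keep many of these genes at a basal level without added interferon.

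The core of the ISRE, written here as GAAANNGAAA on either strand, was looked for in RefSeq promoter windows reaching from 250 bases before to 50 bases after an annotated start. Of the 46 genes, 38 had a window in that table, and 13 of these 38 (34.2%) held at least 1 core, against 404 of the 11165 genes of the deposited table with a window (3.62%) and 1079 of all 27025 genes with a window (3.99%). A match is a description of letters and not a measured binding site. The windows below were chosen because their genes carry large changes (*Ifit3*, *Gbp2*, *Gbp7*, *Bst2*, *Isg15*) or hold a core without a change called over both lines (*Oas1a*). Each is read 5′ to 3′ on the strand of its gene, with the core in capitals. It is named by the gene and by the distance of the first base of the core from the RefSeq start. That start can differ from the GENCODE gene bounds, most of which are given further below. The *Gbp2* window lies within the GENCODE bounds of *Gbp2*. Both *Oas1a* windows lie within those of *Oas1a* (chr5:121031070-121046449, minus strand). The *Gbp7* core begins at the GENCODE start of *Gbp7* (142236044), so upstream here refers to the RefSeq start only. Cores of the same gene overlap each other in *Isg15*, *Bst2* and *Oas1a*.
Ifit3 156 bases upstream: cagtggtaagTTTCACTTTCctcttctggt
Ifit3 122 bases upstream: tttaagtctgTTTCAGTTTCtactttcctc
Gbp2 59 bases upstream: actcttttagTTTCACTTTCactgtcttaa
Gbp7 53 bases upstream: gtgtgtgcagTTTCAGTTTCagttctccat
Bst2 130 bases upstream: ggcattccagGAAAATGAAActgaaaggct
Bst2 124 bases upstream: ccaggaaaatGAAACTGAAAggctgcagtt
Isg15 78 bases upstream: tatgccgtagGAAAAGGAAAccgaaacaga
Isg15 72 bases upstream: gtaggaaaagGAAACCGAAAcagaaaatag
Isg15 66 bases upstream: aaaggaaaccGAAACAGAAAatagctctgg
Oas1a 20 bases upstream: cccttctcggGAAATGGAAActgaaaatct
Oas1a 14 bases upstream: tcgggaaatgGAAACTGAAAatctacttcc
Capitals reading TTTC mark a core on the opposite strand. The full promoter windows each matched once on the chromosome of their gene in GRCm39, and other chromosomes were not searched. The printed windows of *Ifit3* lie on the plus strand at chr19:34560763-34560792 and chr19:34560797-34560826, that of *Gbp2* on the plus strand at chr3:142326355-142326384, and that of *Gbp7* on the plus strand at chr3:142236034-142236063. On the minus strand, those of *Bst2* lie at chr8:71990227-71990256 and chr8:71990221-71990250, those of *Isg15* at chr4:156285334-156285363 and chr4:156285328-156285357 and chr4:156285322-156285351, and those of *Oas1a* at chr5:121045589-121045618 and chr5:121045583-121045612.

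Reads on the listed genes, recovered from the steps between normalized counts, ranged from 41759636 (empty vector replicate 3) to 49026626 (SAM2 replicate 3). Normalized counts of *Hnrnpk*, the targeted gene, were 25058, 26098 and 26164 with empty vector, 24102, 24044 and 23619 in SAM1, and 26608, 26859 and 26221 in SAM2. Its log2 fold change was -0.11 in SAM1 (adjusted p = 0.00252), 0.044 in SAM2 (adjusted p = 0.159) and -0.032 over both (adjusted p = 0.642). Under quantile normalization the value over both was 0.16 (adjusted p = 0.0199). Under that scaling it was 0.094 in SAM1 (adjusted p = 0.00502) and 0.22 in SAM2 (adjusted p = 4.59e-06). As deposited, all 3 SAM1 libraries lay below and all 3 SAM2 libraries above empty vector by small differences, so the direction in SAM1 depends on the scaling, and every direction below refers to the libraries labelled Hnrnpk_SAM, SAM1 and SAM2. The paper reports higher *Hnrnpk* RNA by qRT-PCR and higher protein by Western blot in its *Hnrnpk* SAM MEFs, measures not examined here. All 12 fibroblast markers examined were in the table, and their summed normalized count was 1147635 to 1249494 with empty vector, 898580.2 to 960283 in SAM1 and 1261244 to 1302029 in SAM2. Single fibroblast markers moved in both directions. *Dcn* fell from a mean of 11815 to 2713 in SAM1 and 2538 in SAM2, and *Postn* from 129504 to 49955 and 110853. *Fbln1* rose from a mean of 1240 to 6112 in SAM1 and 5168 in SAM2, and *Pdgfrb* from 6569 to 12577 and 9513. Of the macrophage and leukocyte markers 4 of 13 were in the table (*Csf1r*, *Cd68*, *Lyz2* and *Cd14*, without *Ptprc*), and their summed normalized count was 1487 to 1524 with empty vector, 2513 to 2673 in SAM1 and 1756 to 1775 in SAM2. For 5 of 8 endothelial markers the sum was 428 to 468 with empty vector, 4922 to 5343 in SAM1 and 907 to 977 in SAM2, and for 4 of 8 epithelial markers it was 2246 to 2428 with empty vector, 7209 to 7734 in SAM1 and 2832 to 2918 in SAM2. Single genes carried much of these sums. *Kdr* had a mean of 211 with empty vector, 4693 in SAM1 and 536 in SAM2, while *Cdh5*, an endothelial cadherin, did not pass in SAM1 and was lower in SAM2. *Cldn4* had a mean of 366 with empty vector, 3691 in SAM1 and 211 in SAM2. *Cd14* and *Cd68* were higher in both lines. *Lyz2* was higher in SAM1 (log2 1.20) and lower in SAM2 (log2 -0.78), and *Csf1r* did not pass in SAM1 and was lower in SAM2 (log2 -1.01). The macrophage, endothelial and epithelial sums moved with the groups and lay highest in SAM1, and their part in the results was not tested. In bulk libraries, fewer cells of a type and less RNA per cell cannot be told apart.

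The interferon response genes were mostly lower in the libraries labelled Hnrnpk_SAM. With the 6 libraries of both lines set against the 3 empty vector libraries, 33 of 46 genes were lower (71.7%) and 4 were higher (8.70%) at an adjusted p under 0.05 in limma, and 9 did not pass. Over all genes tested, 27.0% were called lower and 26.8% higher. The median log2 fold change was -0.78 over the 46 genes and 0.0087 over all genes. The 6 libraries lay entirely below the empty vector libraries for 33 genes and entirely above them for 4, against 27.2% and 25.9% of all genes. All 46 had a normalized count above 10 in every library, so none entered the table through 1 group only.

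Of the 33 genes called lower, 25 were among the genes grouped here as induced, which make up 29 of the 46. Among the 29 induced genes 25 were lower, 1 was higher and 3 did not pass, with a median log2 fold change of -0.91. Among the 17 sensors and signalling genes 8 were lower, 3 were higher and 6 did not pass, with a median of -0.10. The shares lower and higher were 86.2% and 3.45% of the induced set and 47.1% and 17.6% of the sensors and signalling set. Of all genes 27.0% were lower and 26.8% higher. None of 21 interferon genes (*Ifnb1*, the *Ifna* family, *Ifng* and others) was in the table, and they were not analysed here. The sets are by role and not by inducibility, since *Irf7*, among the signalling genes, is itself induced by interferon. The 2 largest falls over both lines, *Zbp1* (-2.42) and *Irf7* (-2.38), were among the sensors and signalling genes. The difference between the 2 sets of members was not tested.

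**Figure D1:**
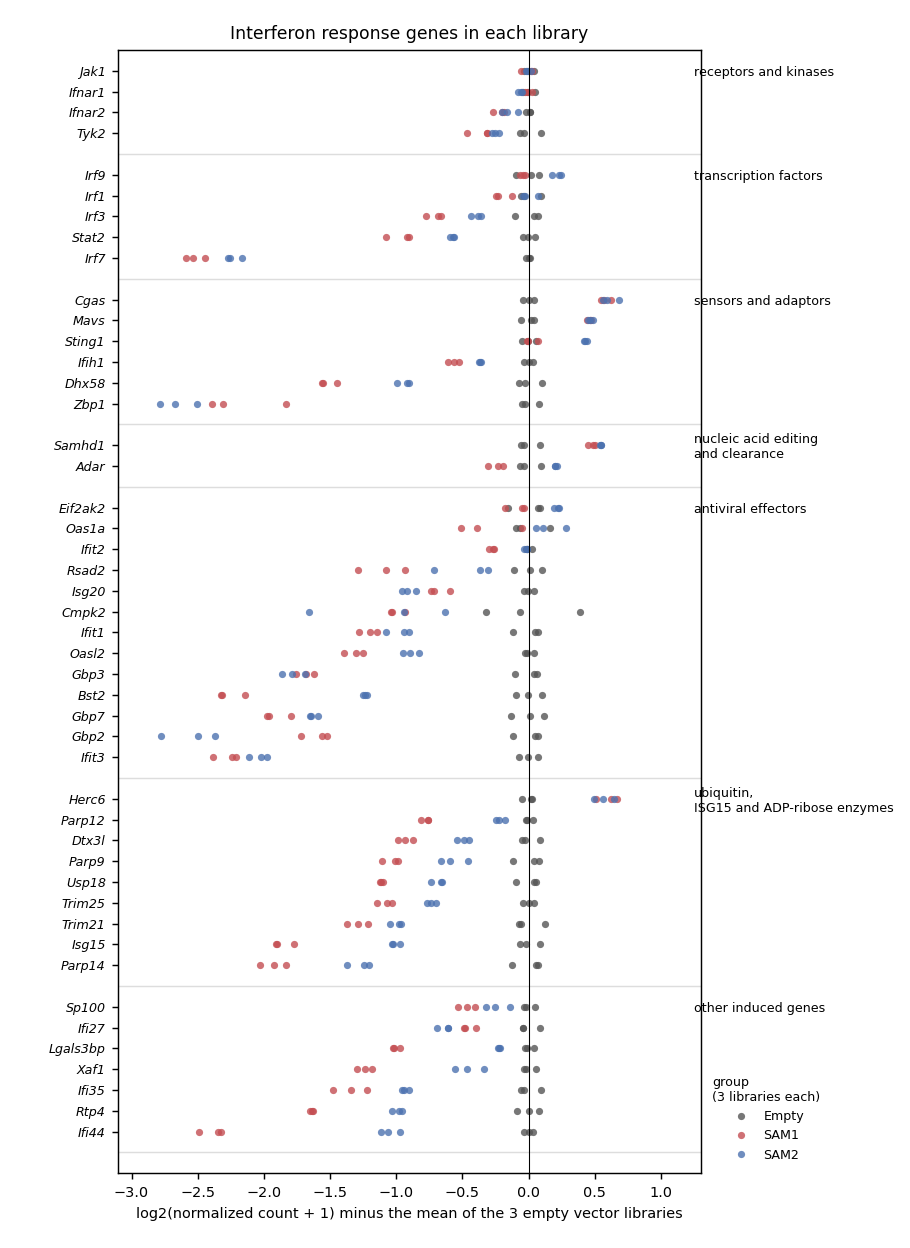
Each point is 1 library, plotted as log2(normalized count + 1) minus the mean of the 3 empty vector libraries, for the 46 interferon response genes grouped by role (grey, empty vector; red, SAM1; blue, SAM2). The 6 libraries labelled Hnrnpk_SAM lie to the left of empty vector for 33 genes and to the right for 4.

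Of the 4 receptor subunits and kinases, 2 were lower over both lines and 2 did not pass, where 27.0% of all genes were lower. *Ifnar1*, a receptor subunit, had normalized counts of 4389.8, 4129 and 4227 with empty vector, 4202, 4177 and 4328 in SAM1, and 4087, 4101 and 4026 in SAM2, with a log2 fold change of -0.033 ± 0.036 (SE), adjusted p = 0.477. *Jak1*, the kinase bound to the other subunit, had normalized counts of 13290.0, 12579 and 12872 with empty vector, 13132, 12386 and 13084 in SAM1, and 12739, 12799 and 13068 in SAM2, with -0.0050 ± 0.035 (SE), adjusted p = 0.913. *Jak1* overlapped empty vector in each line, *Ifnar1* overlapped it in SAM1 and lay below it in SAM2, and neither gene passed in either line. Counts of *Ifnar2*, the subunit that binds interferon most tightly, were 1842, 1880.2 and 1888 with empty vector, 1631, 1643 and 1555 in SAM1, and 1773, 1630.1 and 1667 in SAM2. All 6 libraries lay below empty vector, at a log2 fold change of -0.18 ± 0.045 (SE), adjusted p = 0.0071. *Tyk2*, the kinase bound to IFNAR1, had normalized counts of 1793, 1606 and 1637 with empty vector, 1346, 1215 and 1346 in SAM1, and 1383, 1403 and 1437 in SAM2. Its 6 libraries were again the lower ones, with -0.31 ± 0.061 (SE), adjusted p = 0.00202. Under quantile normalization *Jak1* became 0.16 in SAM1 (adjusted p = 0.000202) and 0.10 in SAM2 (adjusted p = 0.0079), and *Ifnar1* became 0.076 in SAM1 (adjusted p = 0.0304), so their direction depends on the scaling.

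Among the 5 transcription factors, 3 were lower over both lines and 2 did not pass, where 27.0% of all genes were lower. *Irf7*, which amplifies interferon transcription and is itself induced by interferon, had normalized counts of 1052, 1058 and 1035 with empty vector, 174, 192 and 179.7 in SAM1, and 233, 216 and 219 in SAM2. The libraries of both lines were far below those of empty vector, with a log2 fold change of -2.38 ± 0.10 (SE), adjusted p = 1.43e-07. On the linear scale the mean fell from 1048 ± 11.8 (SD, n = 3) to 17.3% of that level in SAM1 and 21.3% in SAM2. *Irf7* lies at chr7:140842619-140846398 (GRCm39, minus strand), and its promoter window held no core.

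*Stat2*, a subunit of ISGF3, had normalized counts of 3608, 3392 and 3492 with empty vector, 1852, 1656 and 1864 in SAM1, and 2351, 2371 and 2316 in SAM2. No library of either line reached the empty vector range, and the log2 fold change was -0.77 ± 0.12 (SE), adjusted p = 0.000476. *Irf3*, the factor activated directly downstream of the sensors, had normalized counts of 1165, 1315 and 1287 with empty vector, 792, 780.1 and 733 in SAM1, and 964, 976 and 926 in SAM2. It fell by a smaller step, with -0.55 ± 0.10 (SE), adjusted p = 0.00152. The DNA-binding subunit of ISGF3, *Irf9*, had normalized counts of 1904, 1821 and 1685 with empty vector, 1768, 1749 and 1722 in SAM1, and 2138, 2112 and 2034 in SAM2. SAM1 overlapped empty vector while all 3 SAM2 libraries lay above it, and the log2 fold changes were -0.045 (adjusted p = 0.376) and 0.22 (adjusted p = 0.000628). *Irf9* lies on chromosome 14, where the median of all genes was 0.57 in SAM2, so that its value after subtracting this median was -0.35. *Irf1*, a factor induced by interferon gamma, had normalized counts of 810.2, 897 and 822 with empty vector, 773, 711 and 717 in SAM1, and 819.9, 885 and 829 in SAM2. It was lower in SAM1 (log2 -0.20, adjusted p = 0.00484) and overlapped empty vector in SAM2 (log2 0.0025, adjusted p = 0.97).

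Sensors of nucleic acids and their adaptors moved in both directions. *Cgas*, the DNA sensor that makes cGAMP, had normalized counts of 486, 501 and 513 with empty vector, 771, 741 and 732 in SAM1, and 753, 805 and 739.5 in SAM2, and *Mavs*, the mitochondrial adaptor of the RNA helicases, had 1081, 1142 and 1161 with empty vector, 1559, 1529 and 1567 in SAM1, and 1541, 1577 and 1558 in SAM2. All 6 libraries lay above empty vector for both genes. Their log2 fold changes were 0.60 ± 0.050 (SE), adjusted p = 8.72e-06 for *Cgas* and 0.46 ± 0.038 (SE), adjusted p = 7.75e-06 for *Mavs*. The lines did not pass the test against each other (difference 0.033, adjusted p = 0.584, and 0.0063, adjusted p = 0.896). *Sting1*, the adaptor that cGAMP activates, is outside the rule by which genes were named (role and size of change) and was added after its values were seen because it acts directly below cGAS. Its normalized counts were 1544, 1612 and 1495 with empty vector, 1629.7, 1543 and 1538 in SAM1, and 2079, 2109 and 2071 in SAM2. All 3 SAM2 libraries lay above empty vector while SAM1 overlapped it, with log2 0.43 (adjusted p = 4.16e-07) against 0.019 in SAM1 (adjusted p = 0.678).

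The remaining 3 sensors were lower. *Zbp1*, a sensor of left-handed nucleic acid that can trigger cell death, had normalized counts of 313, 308 and 336 with empty vector, 59.8, 88.9 and 63.5 in SAM1, and 55.4, 45.4 and 49.2 in SAM2. This was the largest fall of the 46 genes over both lines, at -2.42 ± 0.19 (SE), adjusted p = 6.25e-06. *Dhx58*, which encodes the RNA helicase LGP2, had normalized counts of 590.3, 664 and 609 with empty vector, 227, 209 and 211 in SAM1, and 327, 312 and 331 in SAM2. Its libraries fell in the order empty vector, SAM2 and SAM1 without overlap, with -1.23 ± 0.18 (SE), adjusted p = 0.000291 over both lines. *Ifih1*, which encodes the RNA sensor MDA5, had normalized counts of 1055, 1025 and 1072 with empty vector, 728, 711 and 689 in SAM1, and 812, 813 and 817 in SAM2. The fall was again without overlap but smaller, at -0.47 ± 0.069 (SE), adjusted p = 0.000366.

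The 2 enzymes that act on nucleic acids differed. *Samhd1*, which degrades deoxynucleotides and limits reverse transcription, had normalized counts of 2799, 2536 and 2578 with empty vector, 3696, 3594 and 3728 in SAM1, and 3858, 3827 and 3845 in SAM2. It was higher in all 6 libraries, at 0.51 ± 0.043 (SE), adjusted p = 8.90e-06. *Adar*, which edits adenosine in double-stranded RNA, had normalized counts of 3340.1, 3055 and 2984 with empty vector, 2723, 2518 and 2660.2 in SAM1, and 3615, 3591 and 3592 in SAM2. SAM1 lay below empty vector and SAM2 above it, with log2 fold changes of -0.25 ± 0.043 (SE), adjusted p = 0.000177, and 0.20 ± 0.043 (SE), adjusted p = 0.000859, the only opposite calls among the 46 genes. Over both lines *Adar* did not pass (-0.021, adjusted p = 0.908).

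**Figure D2:**
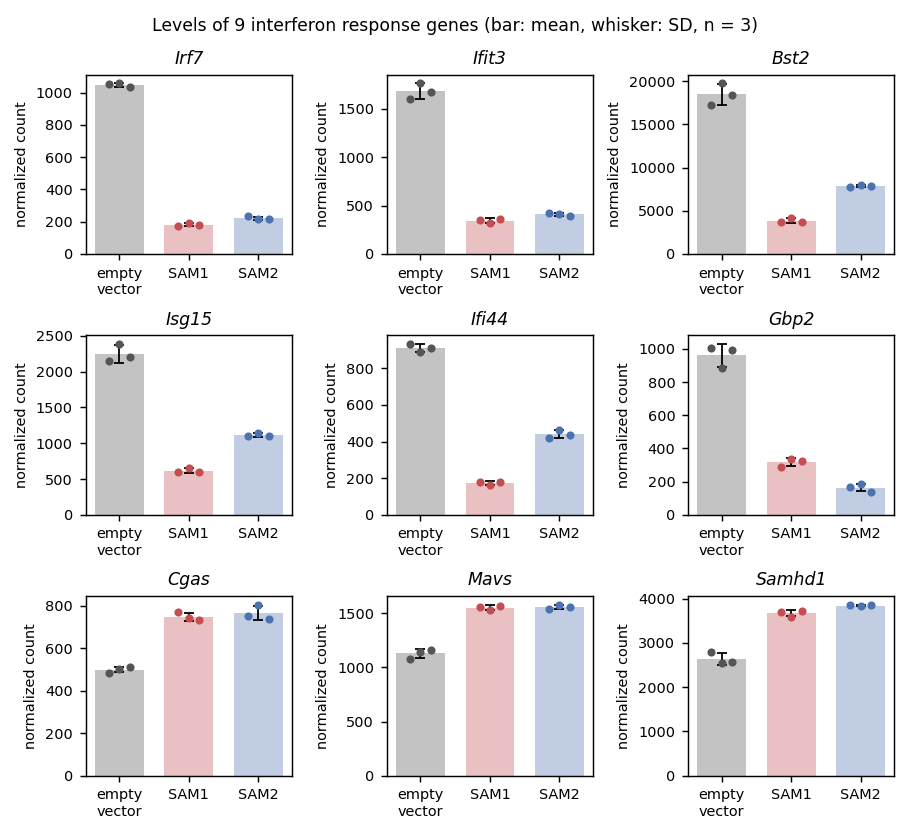
Normalized counts (vertical axis, linear, from 0) of 9 of the genes in the 3 groups, with points for libraries, bars for means and whiskers for the SD (n = 3). *Irf7*, *Ifit3*, *Bst2*, *Isg15*, *Ifi44* and *Gbp2* are lower in both lines, *Gbp2* lowest in SAM2 and the other 5 lowest in SAM1, while *Cgas*, *Mavs* and *Samhd1* are higher in both.

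Of the 13 antiviral effectors 10 were lower over both lines and none was higher (27.0% and 26.8% of all genes), with a median log2 fold change of -1.09. The IFIT proteins bind foreign RNA and block its translation, and 3 of their genes lie near each other on chromosome 19, with 51827 bases between *Ifit3* and *Ifit1*. *Ifit3* had normalized counts of 1600.0, 1765 and 1676 with empty vector, 354, 321 and 361 in SAM1, and 425, 414 and 388 in SAM2. Its log2 fold change of -2.16 ± 0.091 (SE), adjusted p = 1.36e-07 left 20.6% of the empty vector mean in SAM1 and 24.3% in SAM2. *Ifit1* had normalized counts of 1419.9, 1613 and 1591 with empty vector, 632, 696 and 669.9 in SAM1, and 822, 728 and 799.8 in SAM2, with -1.09 ± 0.09 (SE), adjusted p = 8.27e-06. Every library of both lines was below the empty vector range for both genes. The neighbour *Ifit2*, which ends 6374 bases before *Ifit3* starts and is named here after its values were seen, had normalized counts of 2883, 2798 and 2813 with empty vector, 2306, 2343 and 2367 in SAM1, and 2758, 2803 and 2801 in SAM2. It was lower only in SAM1 (-0.28 ± 0.03 (SE), adjusted p = 2.00e-06) and did not pass in SAM2 (-0.022, adjusted p = 0.52). *Ifit2* lies at chr19:34527932-34554524, *Ifit3* at chr19:34560899-34566443 and *Ifit1* at chr19:34618271-34632174, all on the plus strand of GRCm39. IFIT genes are close copies of each other, so how shared reads were divided between them is uncertain.

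The guanylate binding proteins, GTPases that attack intracellular pathogens, were all lower. *Gbp2* had normalized counts of 1007, 882 and 994 with empty vector, 290.4, 334 and 325 in SAM1, and 169, 185 and 139 in SAM2. Its SAM2 libraries lay below those of SAM1, and SAM1 in turn lay below empty vector, with -1.60 ± 0.10 (SE), adjusted p = 5.89e-09 in SAM1 and -2.55 ± 0.10 (SE), adjusted p = 8.31e-11 in SAM2. Counts of *Gbp3* were 727, 738 and 659 with empty vector, 209, 229 and 219.7 in SAM1, and 204, 194 and 219 in SAM2, with -1.73 ± 0.074 (SE), adjusted p = 1.45e-07 over both lines, and those of *Gbp7* were 622, 523 and 578 with empty vector, 146, 145 and 164 in SAM1, and 189.9, 183 and 182 in SAM2, with -1.77 ± 0.11 (SE), adjusted p = 1.50e-06. Neither gene overlapped empty vector in any library. These 3 genes also lie together, with *Gbp7* at chr3:142236044-142255910, *Gbp3* at chr3:142265731-142278979 and *Gbp2* at chr3:142326349-142343779 (GRCm39, plus strand), and as near copies they may share reads.

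*Bst2*, which encodes tetherin, a membrane protein that holds budding viruses on the cell, was the most abundant of the 46 genes for its length. It had normalized counts of 17299, 19795 and 18386 with empty vector, 3690.3, 4178 and 3700.2 in SAM1, and 7739, 7939 and 7851 in SAM2. Its level per kilobase of transcript was 22944 with empty vector, 4784 in SAM1 and 9731 in SAM2. SAM1 lay lowest and SAM2 between it and empty vector, without overlap, at log2 fold changes of -2.26 ± 0.052 (SE), adjusted p = 3.83e-13, and -1.24 ± 0.052 (SE), adjusted p = 2.07e-10. *Bst2* lies at chr8:71986895-71990114 on the minus strand. *Oasl2*, a relative of the oligoadenylate synthetases, had normalized counts of 892, 849 and 857 with empty vector, 364, 329 and 349.6 in SAM1, and 488, 464 and 447 in SAM2, with -1.10 ± 0.13 (SE), adjusted p = 8.92e-05 over both lines.

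*Rsad2* encodes viperin, which makes a chain-terminating nucleotide, and its neighbour *Cmpk2* encodes a nucleotide kinase. *Rsad2* had normalized counts of 121, 113 and 104 with empty vector, 45.6, 58.3 and 52.7 in SAM1, and 68.2, 87.2 and 90.9 in SAM2, and *Cmpk2* had 94.1, 78.8 and 129.7 with empty vector, 51.3, 47.4 and 47.9 in SAM1, and 63.3, 30.6 and 51.0 in SAM2. Both were at low levels with a wide spread, yet all 6 libraries lay below empty vector. Their log2 fold changes were -0.78 ± 0.22 (SE), adjusted p = 0.0147, and -1.04 ± 0.23 (SE), adjusted p = 0.00398. The call of *Rsad2* over both lines was lost without empty vector replicate 1 (log2 -0.73), and its call in SAM2 without SAM2 replicate 1 (log2 -0.33). The exonuclease gene *Isg20*, outside the naming rule, was lower in both lines (-0.68 in SAM1 and -0.91 in SAM2). *Oas1a* and *Eif2ak2*, also outside it, encode an oligoadenylate synthetase and the kinase PKR, and neither passed over both lines (log2 -0.085 and 0.064). *Oas1a* was lower in SAM1 at -0.32 (adjusted p = 0.0253), a call lost without empty vector replicate 2, SAM1 replicate 1 or SAM1 replicate 3 (log2 from -0.28 to -0.22).

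All 9 genes of ISG15, ubiquitin and ADP-ribose modification passed over both lines, 8 lower and 1 higher. Of all genes 53.9% passed, 27.0% lower and 26.8% higher. *Isg15*, a ubiquitin-like modifier, had normalized counts of 2143, 2388 and 2208 with empty vector, 599.9, 655 and 598 in SAM1, and 1102, 1143 and 1099 in SAM2. The libraries fell in the order empty vector, SAM2 and SAM1 without overlap, with -1.44 ± 0.25 (SE), adjusted p = 0.000882 over both lines. *Isg15* lies at chr4:156283883-156285303 on the minus strand of GRCm39. *Usp18*, the protease that removes ISG15 and also restrains the interferon receptor, had normalized counts of 2358, 2619 and 2596 with empty vector, 1163, 1173 and 1154 in SAM1, and 1511, 1600.4 and 1595 in SAM2. It was lower in all 6 libraries, at -0.90 ± 0.13 (SE), adjusted p = 0.000298.

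*Trim25*, a ubiquitin ligase that acts with the RNA sensor RIG-I, had normalized counts of 6477, 6123 and 6297 with empty vector, 2995, 2840.0 and 3081 in SAM1, and 3778, 3886 and 3704 in SAM2, with -0.91 ± 0.11 (SE), adjusted p = 7.84e-05. *Trim21*, a cytosolic antibody receptor and ubiquitin ligase, had normalized counts of 360.1, 413 and 364 with empty vector, 162, 154 and 146 in SAM1, and 192, 183 and 194 in SAM2, with -1.14 ± 0.11 (SE), adjusted p = 2.56e-05. Neither overlapped empty vector. *Parp14*, an ADP-ribosyltransferase, had the largest fall of this set, with normalized counts of 1553, 1369.7 and 1572 with empty vector, 394, 366 and 419 in SAM1, and 630.0, 576 and 649 in SAM2 and a log2 fold change of -1.60 ± 0.20 (SE), adjusted p = 0.000107. *Parp9*, whose product pairs with DTX3L, had normalized counts of 1577, 1380.2 and 1535 with empty vector, 741, 694 and 755 in SAM1, and 1088, 992 and 944 in SAM2, with -0.80 ± 0.15 (SE), adjusted p = 0.00121. *Parp14*, *Dtx3l* and *Parp9* are neighbours on chromosome 16, where *Dtx3l* (minus strand) and *Parp9* (plus strand) overlap by 682 bases. The strand setting of the counting is not given in the sources used here, so reads in that overlap may not have been told apart.

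*Dtx3l*, *Parp12* and *Herc6* are outside the naming rule, and *Herc6* is given in full because it was the only induced gene called higher over both lines. *Herc6*, described as the main ISG15 ligase of the mouse, had normalized counts of 212, 222 and 223 with empty vector, 347, 311 and 338 in SAM1, and 342, 309 and 323 in SAM2. All 6 libraries lay above empty vector, by 0.58 ± 0.067 (SE), adjusted p = 6.96e-05. *Dtx3l* and *Parp12* were lower in both lines, at -0.93 in SAM1 and -0.49 in SAM2 for *Dtx3l* and -0.78 in SAM1 and -0.22 in SAM2 for *Parp12*. The call of *Parp12* over both lines was lost when any of the 3 empty vector libraries was left out (log2 from -0.51 to -0.48). Its SE over both lines (0.16, against 0.037 in each line) includes the difference between SAM1 and SAM2.

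The other 7 induced genes were all lower over both lines, where 27.0% of all genes were lower. *Ifi44*, a gene of uncertain biochemical function, had normalized counts of 932, 888 and 911 with empty vector, 181, 161 and 178 in SAM1, and 420.3, 464 and 434 in SAM2. The 3 groups did not overlap, and the log2 fold changes of -2.39 ± 0.063 (SE), adjusted p = 1.41e-12 in SAM1 and -1.05 ± 0.063 (SE), adjusted p = 6.74e-09 in SAM2 were the most unequal pair among the 46 genes. *Rtp4*, a receptor transporter protein that also limits viruses, had normalized counts of 1176, 1241 and 1104 with empty vector, 377, 373 and 379 in SAM1, and 593, 603 and 572 in SAM2, with -1.31 ± 0.19 (SE), adjusted p = 0.000299 over both lines. *Ifi35*, an interferon-induced leucine zipper protein, had normalized counts of 1464, 1605 and 1444 with empty vector, 538, 645 and 592 in SAM1, and 801, 781 and 772 in SAM2, with -1.14 ± 0.13 (SE), adjusted p = 7.32e-05. Both fell without overlap.

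*Xaf1*, whose product antagonizes the apoptosis inhibitor XIAP, had normalized counts of 489, 482 and 514 with empty vector, 217, 200.5 and 209 in SAM1, and 391, 337 and 358 in SAM2, with -1.24 ± 0.068 (SE), adjusted p = 2.03e-09 in SAM1 and -0.45 ± 0.068 (SE), adjusted p = 5.12e-05 in SAM2. *Lgals3bp*, a secreted glycoprotein, had normalized counts of 7789, 7519.9 and 7417 with empty vector, 3855, 3718 and 3749 in SAM1, and 6437, 6523 and 6487 in SAM2, with -1.0 ± 0.029 (SE), adjusted p = 3.30e-12 in SAM1 and -0.22 ± 0.029 (SE), adjusted p = 1.22e-05 in SAM2. For both genes the fall in SAM1 exceeded that in SAM2. Over both lines *Lgals3bp* was called at -0.61 ± 0.22 (SE), adjusted p = 0.0411, which was lost when any 1 of the empty vector or SAM1 libraries was left out (log2 from -0.63 to -0.53). The SE over both lines includes the difference between SAM1 and SAM2. *Ifi27* and *Sp100*, outside the naming rule, encode an organelle membrane protein and a nuclear body protein, and their log2 fold changes over both lines were -0.55 and -0.35.

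The lines were then compared with the shared empty vector libraries and with each other. In SAM1 37 of the 46 genes were lower and 4 higher, against 36.9% and 37.3% of all genes, and in SAM2 33 were lower and 8 higher, against 35.3% and 35.2%. The median log2 fold change was -0.98 in SAM1 and -0.53 in SAM2 (all genes 0.0093 and -0.0015). A fall of 1 or more on the log2 scale was seen for 23 genes in SAM1 and 11 in SAM2, against 5.08% and 4.85% of all genes, and a fall of 2 or more for 5 and 4, against 1.28% and 1.20%. Over all genes 26.4% were lower in both lines and 25.9% higher in both, calls that share the 3 empty vector libraries. Of the 46 genes 33 were lower in both lines, 4 were higher in both (*Cgas*, *Mavs*, *Samhd1* and *Herc6*), 3 passed only as lower in SAM1 (*Irf1*, *Ifit2* and *Oas1a*), 3 only as higher in SAM2 (*Irf9*, *Sting1* and *Eif2ak2*), 1 was called in opposite directions (*Adar*), and 2 passed in neither (*Ifnar1* and *Jak1*). Each of the 7 genes with unlike calls also differed between the lines in the direct test.

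Tested directly, SAM2 differed from SAM1 for 36 genes. The level was higher in SAM2 for 32 of them and lower for 4, against 31.1% and 29.2% of all genes. Of the 33 genes lower in both lines, 25 were higher in SAM2 than in SAM1, 4 were lower and 4 did not pass. The largest differences were those of *Ifi44* (1.34 ± 0.063 (SE), adjusted p = 1.41e-09), *Bst2* (1.03 ± 0.052 (SE), adjusted p = 2.82e-09) and *Isg15* (0.85 ± 0.051 (SE), adjusted p = 1.26e-08). The 4 genes lower in SAM2 than in SAM1 were *Gbp2* (-0.95), *Zbp1* (-0.47), *Isg20* (-0.23) and *Ifi27* (-0.18). *Gbp3*, *Cmpk2*, *Ifnar2* and *Tyk2* were lower in both lines without passing between them. The summed macrophage, endothelial and epithelial markers were higher in SAM1 than in SAM2, and their part in the line difference was not tested.

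**Figure D3:**
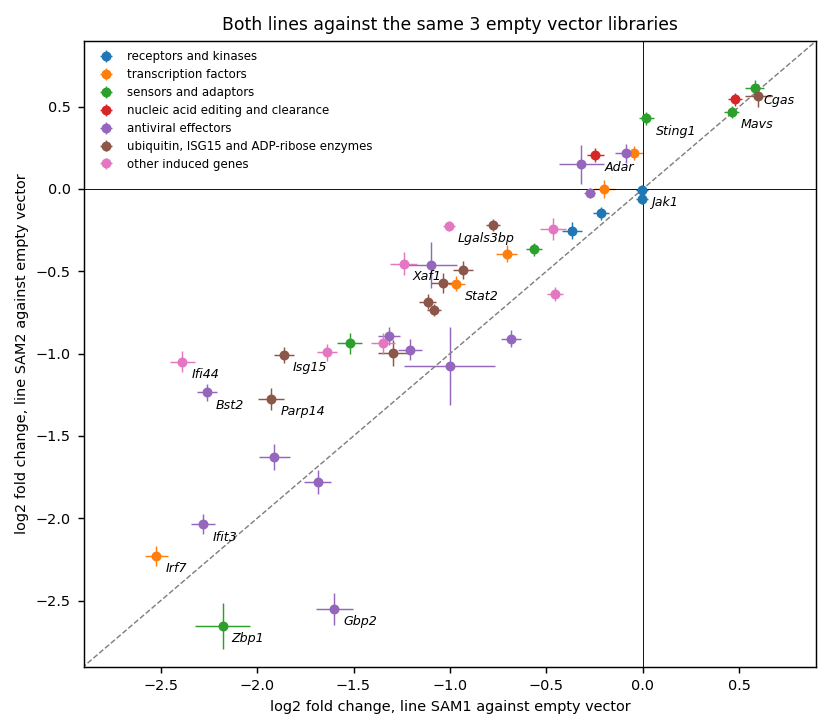
Log2 fold change against empty vector in SAM1 (horizontal) and SAM2 (vertical) for the 46 genes, coloured by role, with whiskers for the SE and a dashed line where both are equal. Both axes use the same 3 empty vector libraries, and most genes lie above the dashed line in the lower left, where the fall is larger in SAM1.

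Read against the promoter windows shown above, the 13 genes with a core were 11 lower and 0 higher over both lines, with a median log2 fold change of -1.14. In limma, *Oas1a* and *Eif2ak2* were the 2 that did not pass. The 25 genes with a window and no core were 15 lower, 4 higher and 6 not passing, with a median of -0.35. Over all genes 27.0% were lower and 26.8% higher, and the difference between the genes with and without a core was not tested. *Irf7* (-2.38) and *Ifi44* (-1.72) were among those without a core, and so were *Cgas*, *Mavs*, *Samhd1* and *Herc6*. Cores began within 222 bases upstream of the RefSeq start or, in *Ifih1*, *Trim21* and *Eif2ak2*, up to 32 bases downstream of it. The remaining 8 genes (*Sting1*, *Dhx58*, *Zbp1*, *Usp18*, *Parp9*, *Parp14*, *Ifi27* and *Rtp4*) were not matched in the promoter table.

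**Figure D4:**
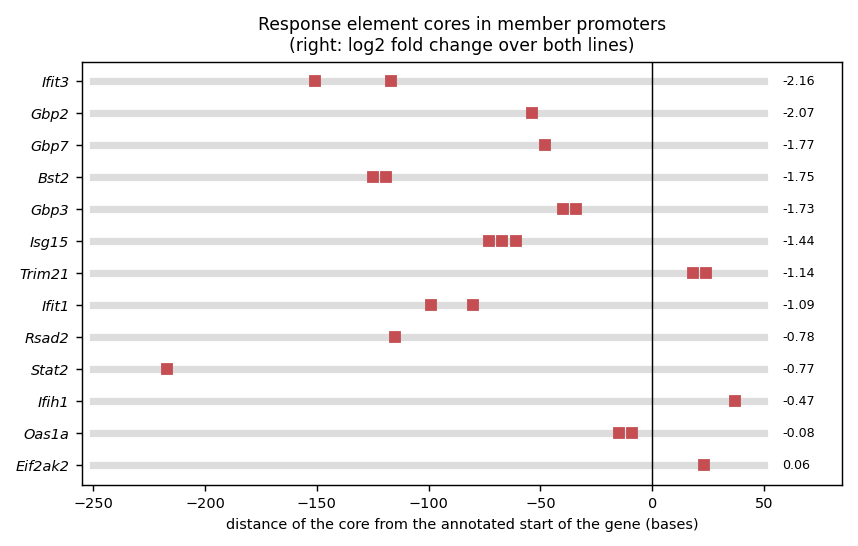
Red squares mark the centre of each ISRE core in the 13 windows that held one, in bases from the RefSeq start (vertical line). The log2 fold change over both lines is at the right, and genes are ordered by it. The grey bar is the searched window, and the 2 genes at the bottom, *Oas1a* and *Eif2ak2*, hold cores without a call over both lines.

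The median log2 fold change of all genes differed between chromosomes, from -0.24 on chromosome 7 to 0.55 on chromosome 14 over both lines. The 46 genes lay on 17 chromosomes. After the median of its own chromosome was subtracted, each of the 33 lower genes stayed below 0 and each of the 4 higher genes stayed above 0. *Mavs* and *Samhd1*, on chromosome 2 (median 0.21), were left with 0.25 and 0.30. *Irf7*, on chromosome 7, was left with -2.13. In SAM2, 2 called genes changed sign, *Irf9* as given above and *Ifnar2* to 0.0088. Whether these shifts have a chromosomal source was not tested.

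**Figure D5:**
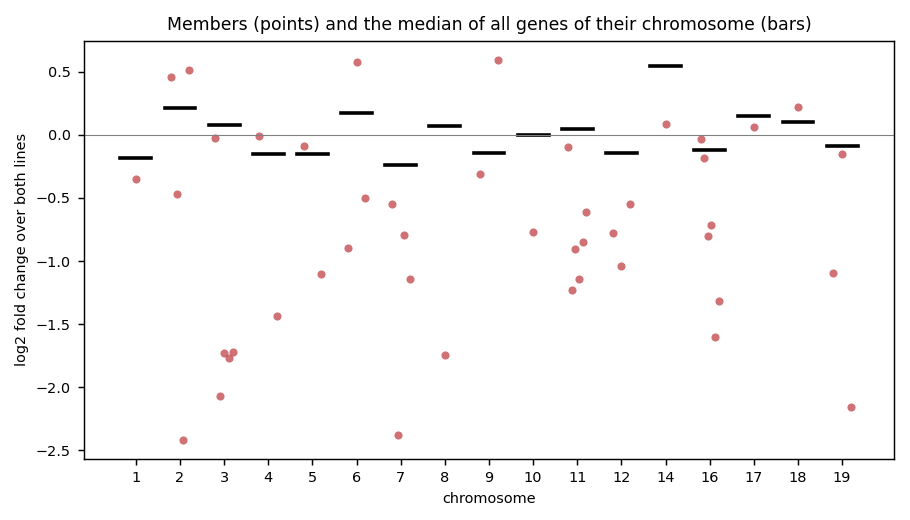
Log2 fold change over both lines (vertical) of the 46 genes (red points) on the 17 chromosomes that hold them (horizontal), with the median of all genes of each chromosome as a black bar. The 33 genes called lower all lie below the bar of their chromosome.

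Other genes of the pathway were read from lists of 22 signalling and 62 induced gene symbols, of which 20 and 57 were in the table. The signalling list holds RIG-I under both *Rigi* and *Ddx58*, and only *Ddx58* was in the table. Among the signalling genes 9 were lower and 4 higher over both lines, with a median log2 fold change of -0.15, and among the induced genes 31 were lower and 4 higher, with a median of -0.57, where 27.0% of all genes were lower and 26.8% higher. The largest falls among those called were in *Ifi27l2a* (-1.70 ± 0.32 (SE), adjusted p = 0.00161), a mitochondrial protein of the ISG12 family, *Ifi47* (-1.61 ± 0.52 (SE), adjusted p = 0.0255) and *Iigp1* (-1.60 ± 0.12 (SE), adjusted p = 4.89e-06), which encode immunity-related GTPases. *Ifi27l2a* had normalized counts of 2108, 2388 and 2259 with empty vector, 451, 496 and 455 in SAM1, and 1035, 1063 and 960.3 in SAM2, without overlap between groups. The largest rises among those called were in *Slfn9* (1.51 ± 0.081 (SE), adjusted p = 5.67e-07), a Schlafen gene, *Ptpn6* (1.41 ± 0.25 (SE), adjusted p = 0.00104), which encodes the phosphatase SHP-1, and *Lgals9* (1.31 ± 0.20 (SE), adjusted p = 0.00042), which encodes galectin-9.

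Per kilobase of transcript, which allows levels of different genes to be set side by side, the empty vector means ran from 29.8 for *Rsad2* to 22944 for *Bst2*. *Isg15* stood at 2872, *Ifit3* at 804, *Irf7* at 437, *Stat2* at 776 and *Cgas* at 122. In SAM1 *Isg15* stood at 789.5, *Irf7* at 75.8 and *Cgas* at 183. Thus *Cgas* lay below *Irf7* with empty vector and above it in SAM1, where lengths are those of the canonical transcript in the annotation and not of the transcripts these cells use.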

How the data were processed

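PolyA+ RNA libraries were made with a directional kit and sequenced in pairs of 43 bases. The authors aligned reads with TopHat2 and Bowtie2 to GRCm39 with Gencode vM29, counted them per gene with HTSeq, scaled libraries by DESeq2 size factors and filtered out low genes. The deposited values are therefore a normalized signal and not raw counts. The filter asked for more than 10 in 30% or more of the libraries, which all 15184 genes met when checked. Every value was a whole multiple of what 1 read is worth (tolerance 0.001), so whole reads were recovered for all 9 libraries (100%). The size factor of SAM2 replicate 1 lies close to 1, but its values are not whole numbers.

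Log2(normalized count + 1) was fitted with limma 3.58.1 (R 4.3.3), moderated with a trend, with the 6 libraries labelled Hnrnpk_SAM as 1 group against empty vector, as the study did, and with 3 groups. Two-sided p-values were Benjamini-Hochberg adjusted over all 15184 genes at a threshold of 0.05, and fold changes on this scale understate those of low genes. Alternatives were other pseudocounts, a stricter filter, quantile normalization, the replicate block, edgeR 4.0.16 and DESeq2 1.42.0 on the recovered reads, the mean of the lines, subtraction of chromosome medians and each library left out. On the recovered reads edgeR called 4062 genes lower and 4106 higher over both lines. The tests were run on simulated counts before use.

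Positions are from GRCm39 with GENCODE vM39. RefSeq promoter windows (GRCm38.p6) were placed on GRCm39 by exact match. The members, the gene lists and the comparisons were chosen with earlier results of these data known. Genes given with all libraries were chosen by role and size: up to 5 called genes per role (8 effectors), those with a log2 change of 1 or more against empty vector, opposite calls, and the classical signalling genes. Of the other pathway genes, the 3 largest rises and falls among those called over both lines are given, and 1 gene of the lists is not reported here. Replicate libraries differed by more than sampling noise.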

Additional observations from a re-analysis of the deposited data

Results flagged for a closer look

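By the limma test of SAM2 against SAM1, the lines differed for 36 of the 46 genes (78.3%) and for 60.3% of all genes. Both lines share the same empty vector libraries. The values are log2 differences, SAM2 minus SAM1, so a positive value means a higher level in SAM2. The widest gaps were those of *Ifi44* (1.34), *Bst2* (1.03), *Isg15* (0.85), *Xaf1* (0.79), *Lgals3bp* (0.78), *Parp14* (0.65), *Rtp4* (0.65), *Rsad2* (0.64), *Dhx58* (0.58) and *Parp12* (0.56). Middle values were those of *Oas1a* (0.47), *Parp9* (0.46), *Adar* (0.45), *Dtx3l* (0.44), *Usp18* (0.43), *Oasl2* (0.42), *Ifi35* (0.41), *Sting1* (0.41), *Stat2* (0.39), *Trim25* (0.35), *Irf3* (0.31) and *Eif2ak2* (0.30). The smallest were those of *Trim21* (0.30), *Irf7* (0.29), *Gbp7* (0.28), *Irf9* (0.26), *Ifit2* (0.25), *Ifit3* (0.24), *Ifit1* (0.23), *Sp100* (0.22), *Irf1* (0.20) and *Ifih1* (0.20). In the opposite direction were *Ifi27* (-0.18), *Isg20* (-0.23), *Zbp1* (-0.47) and *Gbp2* (-0.95). Guide and line cannot be told apart here, since each line is 1 label.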

How the results depend on the processing

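Across the alternatives, 30 to 34 members were lower and 4 to 5 higher over both lines, 36 to 38 and 4 to 6 in SAM1, and 32 to 34 and 8 to 9 in SAM2, and 35 to 37 differed between lines. The median log2 fold change over both lines moved from -0.78 to -0.74 with a pseudocount of 8 and -0.81 with quantile normalization, and with 1 library left out it ran from -0.80 to -0.71. That of SAM1 was -0.94 with a pseudocount of 8 and -1.0 to -0.95 with 1 library left out, and that of SAM2 was -0.57 with quantile normalization and -0.55 to -0.50 with 1 library left out. Under quantile normalization *Ifnar1* in SAM1 turned to 0.076, and *Jak1* turned to 0.13 over both lines, 0.16 in SAM1 and 0.10 in SAM2, and the line difference of *Zbp1* (-0.16) no longer passed. The call of *Lgals3bp* over both lines was lost under quantile normalization (log2 -0.53, adjusted p = 0.0633) and in edgeR on recovered reads (log2 -0.56). After subtraction of the chromosome median *Ifnar2* in SAM2 turned to 0.0088 and *Irf9* in SAM2 to -0.35. Beyond the construction of each alternative, the cause was not tested. Of 1656 values with 1 library left out, 15 lost their call and 3 gained one. The difference of *Sp100* between lines was lost without SAM2 replicate 1 (log2 0.18).

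Replicate numbers were not taken as pairing the libraries in the main fit. Even so, 3 of 9 same-numbered pairs correlated over 0.1, and 0 of 18 others did. Whether same-numbered libraries share a source was not tested. Deviations from the group means correlated between same-numbered libraries with a mean r of 0.0531 (0.00237 to 0.117, 9 pairs) and between others with -0.0265 (18 pairs). Because each group was centred on its own mean, these mean r values are not independent of each other. With the replicate block 31 members were lower over both lines, *Parp12* (log2 -0.50) and *Lgals3bp* (log2 -0.61) not passing, while *Eif2ak2* in SAM1 and the line difference of *Tyk2* passed.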

Other observations

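Several induced genes outside the 46 differed widely between the lines. They were chosen after their values were seen, and the adjusted p-values given with them do not allow for that choice. *Irgm1*, an immunity-related GTPase, had normalized counts of 4356, 4519 and 4356 with empty vector, 1747, 1667 and 1666 in SAM1, and 4074, 3943 and 3908 in SAM2, and its log2 fold changes in limma were -1.38 in SAM1 and -0.15 in SAM2 (adjusted p = 5.91e-13 and 0.00123), with a difference of 1.23 (adjusted p = 7.54e-12). *Tgtp1*, another such GTPase with a near-identical copy that may share its reads, had normalized counts of 98.2, 86.1 and 102 with empty vector, 12.3, 3.95 and 8.79 in SAM1, and 64.3, 54.7 and 48.2 in SAM2, and changed by -3.47 in SAM1 and -0.77 in SAM2 (adjusted p = 1.28e-07 and 0.0289), with a difference of 2.70 (adjusted p = 3.50e-06). *Oas2*, an oligoadenylate synthetase, had normalized counts of 83.9, 86.1 and 80.6 with empty vector, 7.59, 10.9 and 11.7 in SAM1, and 58.4, 50.1 and 59.4 in SAM2, with -2.95 in SAM1 and -0.57 in SAM2 (adjusted p = 4.50e-09 and 0.0103), with a difference of 2.38 (adjusted p = 1.03e-07). In all 3 the SAM2 libraries lay between SAM1 and empty vector.

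Of the genes that moved the other way, *Slfn2*, a Schlafen gene, had normalized counts of 168, 172 and 183 with empty vector, 1799.6, 1917 and 1758 in SAM1, and 285, 289 and 254 in SAM2, with 3.38 in SAM1 and 0.66 in SAM2 (adjusted p = 7.88e-14 and 9.78e-07), with a difference of -2.72 (adjusted p = 2.69e-12). *Aim2*, a DNA sensor of the inflammasome, had normalized counts of 232, 249 and 213 with empty vector, 371, 361 and 374 in SAM1, and 112, 104 and 116 in SAM2, with 0.67 in SAM1 and -1.06 in SAM2 (adjusted p = 4.23e-06 and 5.94e-08), with a difference of -1.73 (adjusted p = 1.01e-09). *Slfn2* was thus higher in both lines, and *Aim2* was higher in SAM1 and lower in SAM2.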
